A study of Glycine max with 18 samples.

Results

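The expression of 5 soybean genes of the MYB family, out of 56044 genes measured, is described across germination with and without paclobutrazol (PBZ), an inhibitor of gibberellin (GA) biosynthesis. They are Glyma.20G090700, Glyma.10G142200, Glyma.19G055800, Glyma.12G032200 and Glyma.03G007500. They were chosen from these data: the first 4 because their expression was lower under PBZ in the samples taken 24 hours after the start of imbibition (24 HAI), and Glyma.03G007500 because its expression was higher with PBZ at 36 HAI. Those differences are therefore given as values, and how they stand to the limits below only restates the choice. Tests are reported for other times and contrasts.

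The libraries were made from embryonic axes of seeds of cultivar BRS-284, cut away from the cotyledons, and each holds the RNA of whole axes. The 6 conditions were PBZ and control at 12, 24 and 36 HAI, with 3 biological replicates each and 18 libraries in all. PBZ seeds took up sterile water with 200 µM PBZ and control seeds took up sterile water alone, and all were kept at 28 °C with 12 h of light a day. The study names 3 plates of 20 seeds for a sample, without saying whether plates were pooled, and 1 PBZ concentration was used.

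PBZ blocks the oxidation of ent-kaurene, an early step of GA synthesis, and GA acts by removing DELLA proteins, which restrain growth and germination. MYB factors with R2 and R3 repeats form one of the largest families of plant transcription factors, and in germinating cereal grains a MYB protein is a classical activator of GA-induced genes. In Arabidopsis, members of the family control the lignified secondary wall, phenylpropanoid synthesis, the separation of lateral organs and responses to stress. The gene names used below are the closest Arabidopsis matches listed by the study, and the roles given with them are known from Arabidopsis and not from soybean.

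Expression is given as RPKM, the reads of a gene scaled by its transcript length and by the mapped reads of the library, so levels can be compared between genes. Changes are differences of mean log2(RPKM + 0.1) values, PBZ minus control unless stated, and this scale understates the change of a gene near 0. Below, passing both limits means a Benjamini-Hochberg adjusted p of no more than 0.05 in limma together with a log2 change of 1 or more, a 2-fold difference. Genes with a mean of at least 1 RPKM in at least 1 group of a comparison were tested. Between 28330 and 32000 genes reached 1 RPKM in a library. Relative depth, read from the steps between low RPKM values, spanned 0.812 to 2.85 times that of control replicate 1 at 24 HAI. This depth is a rough estimate, resting on as few as 19 genes in a library.

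Libraries stood apart in 63 genes listed by the study, most of them nuclear copies of organellar genes. The study drew up that list on these samples, as genes higher with PBZ at 24 HAI and lower with PBZ at 36 HAI. The direction of their treatment difference at those times is therefore part of the choice. At 24 HAI these genes held 4.43% to 7.37% of the summed RPKM in PBZ libraries, against 0.248% to 0.308% in control libraries. The treatment and this difference cannot be told apart at 24 HAI. At 36 HAI the share was 0.242% to 0.415% with PBZ, and in control libraries 0.187% to 5.03%, where the high value belonged to replicate 3. At 12 HAI it was 3.85% to 7.42% with PBZ and 0.732% to 11.4% in control, where the low value belonged to replicate 2. For the 5 genes, values without these 2 control libraries are given beside the results that rest on them.

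The MYB61 pair, Glyma.20G090700 and Glyma.10G142200, was nearly silent at 12 HAI and strongly expressed at 36 HAI in both treatments, and with PBZ it was at a lower level at 24 HAI. In Arabidopsis, MYB61 acts in xylem formation and lignin deposition, in stomatal closure and in seed coat mucilage. At 24 HAI, Glyma.20G090700 had 0.356, 0.622 and 0.480 RPKM in the PBZ replicates, against 3.05, 1.59 and 2.25 RPKM in the control replicates. The PBZ mean of 0.486 ± 0.133 RPKM was 21.2% of the control mean of 2.30 ± 0.730 RPKM (SD, n = 3 each), a log2 change of -2.01. This was the lowest PBZ share of the control mean among the 5 genes, and no PBZ library reached the lowest control library. In bulk axes, fewer cells that express a gene and less RNA of it per cell cannot be told apart.

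Glyma.10G142200 was the more highly expressed gene of the pair at 24 and 36 HAI. At 24 HAI it had 1.77, 2.34 and 2.68 RPKM with PBZ, against 6.92, 5.05 and 4.45 RPKM in control. The PBZ mean was 2.26 ± 0.461 RPKM and the control mean 5.47 ± 1.28 RPKM (SD, n = 3 each), so PBZ axes held 41.3% of the control level (log2 change -1.23), again with no overlap of the groups. Only uniquely mapped reads were used, so reads that close copies share were lost, and values of a pair with the same best match are uncertain in that respect.

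Glyma.19G055800, whose closest match was MYB40, followed the same course. At 24 HAI it had 0.846, 0.706 and 0.9996 RPKM with PBZ and 2.93, 1.92 and 2.19 RPKM in control. The means were 0.851 ± 0.147 RPKM with PBZ and 2.35 ± 0.520 RPKM in control (SD, n = 3 each), which put PBZ axes at 36.3% of control (log2 change -1.35). All 3 PBZ libraries lay below all 3 control libraries.

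Glyma.12G032200 was matched to MYB32, which in Arabidopsis belongs with MYB4 to a group of repressors of phenylpropanoid genes. At 24 HAI it had 1.05, 1.44 and 1.36 RPKM with PBZ, against 3.33, 2.31 and 2.73 RPKM in control. The means were 1.28 ± 0.207 RPKM with PBZ and 2.79 ± 0.515 RPKM in control (SD, n = 3 each), or 45.9% of control with PBZ (log2 change -1.06). Of the 4 genes it was the closest to the 2-fold limit, and its groups did not overlap either.

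Since the 24 HAI values chose these 4 genes, their place past both limits in the lower direction there is part of the choice and is no test of it. Of the 31148 genes tested at 24 HAI, 0.202% lay past both limits with PBZ lower, and 22.8% had groups that did not overlap with PBZ lower. With each library left out in turn, the log2 changes of the 4 genes lay between -2.24 and -0.93. With the 63 organelle-like genes left out and the values rescaled, they lay between -1.95 and -0.99.

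**Figure D1:**
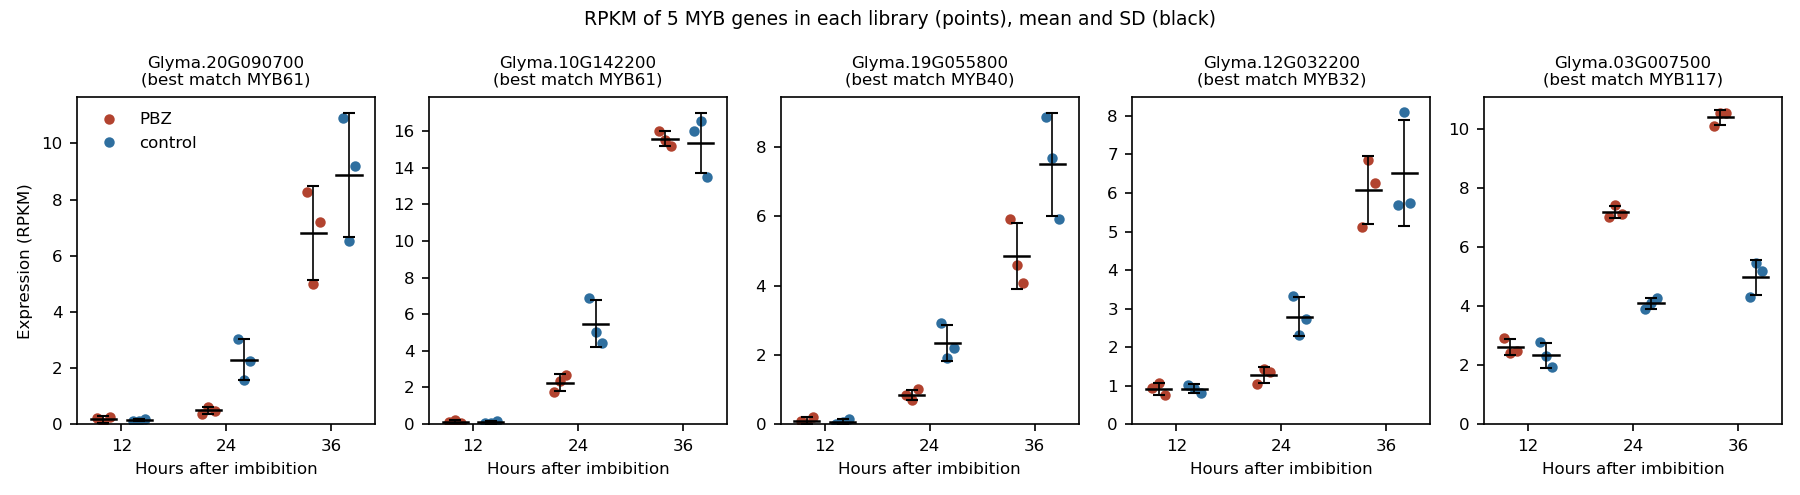
RPKM of the 5 MYB genes (vertical axis, one scale per panel) at 12, 24 and 36 HAI, with PBZ in red left of control in blue; points are libraries and black bars are the mean and SD of 3 replicates. Glyma.20G090700, Glyma.10G142200, Glyma.19G055800 and Glyma.12G032200 have PBZ points below all control points at 24 HAI, and Glyma.03G007500 has PBZ points above them at 24 and 36 HAI.

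The 12 HAI samples were not used in the choice of the genes, and no difference between treatments was detected in them. In the PBZ replicates Glyma.20G090700 had 0.224, 0.0288 and 0.246 RPKM, against 0.106, 0.126 and 0.179 RPKM in control. Glyma.10G142200 had 0.112, 0.226 and 0.0613 RPKM with PBZ, against 0.0593, 0.0385 and 0.164 RPKM in control. Glyma.19G055800 was listed at 0.0781, 0 and 0.210 RPKM with PBZ and at 0, 0.0548 and 0.155 RPKM in control. These 3 genes were close to 0 in every library of this time, and PBZ and control overlapped in each.

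Glyma.12G032200 was the only one of the 4 with clear expression at 12 HAI, at 0.931, 1.06 and 0.755 RPKM with PBZ and 1.02, 0.925 and 0.797 RPKM in control. Its group means of 0.916 ± 0.154 RPKM with PBZ and 0.915 ± 0.113 RPKM in control (SD, n = 3 each) lay just under the filter. All 4 genes were thus untested at 12 HAI, and without the filter their adjusted p in limma ranged from 0.969 to 0.999. Their log2 changes at 12 HAI were -0.00 to 0.31, and 0.01 to 0.15 without control replicate 2. Across the transcriptome 0.0102% of the 29297 genes tested passed both limits at 12 HAI, and 5.04% reached an unadjusted p of 0.05.

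At 36 HAI the first 4 genes had drawn closer to control, and none of them passed the unpaired test. Glyma.10G142200 had 16.02, 15.5 and 15.2 RPKM with PBZ, against 16.02, 16.6 and 13.5 RPKM in control. Its log2 change was 0.03 (95% interval -0.21 to 0.26, limma adjusted p = 0.954), an interval that leaves out a 2-fold difference either way. Glyma.12G032200 had 5.11, 6.85 and 6.26 RPKM with PBZ, against 5.69, 8.11 and 5.74 RPKM in control. Its log2 change was -0.09 (95% interval -0.50 to 0.32, limma adjusted p = 0.903). For both genes the treatments overlapped.

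Glyma.20G090700 and Glyma.19G055800 had lower PBZ means at 36 HAI. Glyma.20G090700 had 8.26, 4.99 and 7.21 RPKM with PBZ, against 10.9, 6.54 and 9.21 RPKM in control, and the groups overlapped. Its log2 change was -0.38 (95% interval -0.94 to 0.19, limma adjusted p = 0.692). This test was unpaired, and each PBZ replicate of the gene lay below the control replicate of the same number. By replicate number, its levels had the same order in both treatments. The unpaired interval includes that shared spread, so it does not exclude a lower level with PBZ. Glyma.19G055800 had 5.91, 4.58 and 4.08 RPKM with PBZ, against 8.88, 7.69 and 5.93 RPKM in control. Here every PBZ library lay below every control library, by a narrow gap between PBZ replicate 1 and control replicate 3, whereas 4.77% of all genes tested at 36 HAI had non-overlapping groups with PBZ lower.

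The PBZ mean of Glyma.19G055800 at 36 HAI, 4.86 ± 0.946 RPKM, was 64.8% of the control mean, 7.50 ± 1.49 RPKM (SD, n = 3 each). The log2 change of -0.61 (95% interval -1.06 to -0.17) had an unadjusted p of 0.0138 and an adjusted p of 0.412 in limma. It was the 1 gene of the 4 whose unadjusted p reached 0.05, as in 8.85% of all 32752 genes tested, and 0 of the 4 passed both limits. Without control replicate 3, the library with the high organelle-like share, its log2 change was -0.77 and its adjusted p 0.320, and the log2 changes of the other 3 lay between -0.34 and -0.06.

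**Figure D2:**
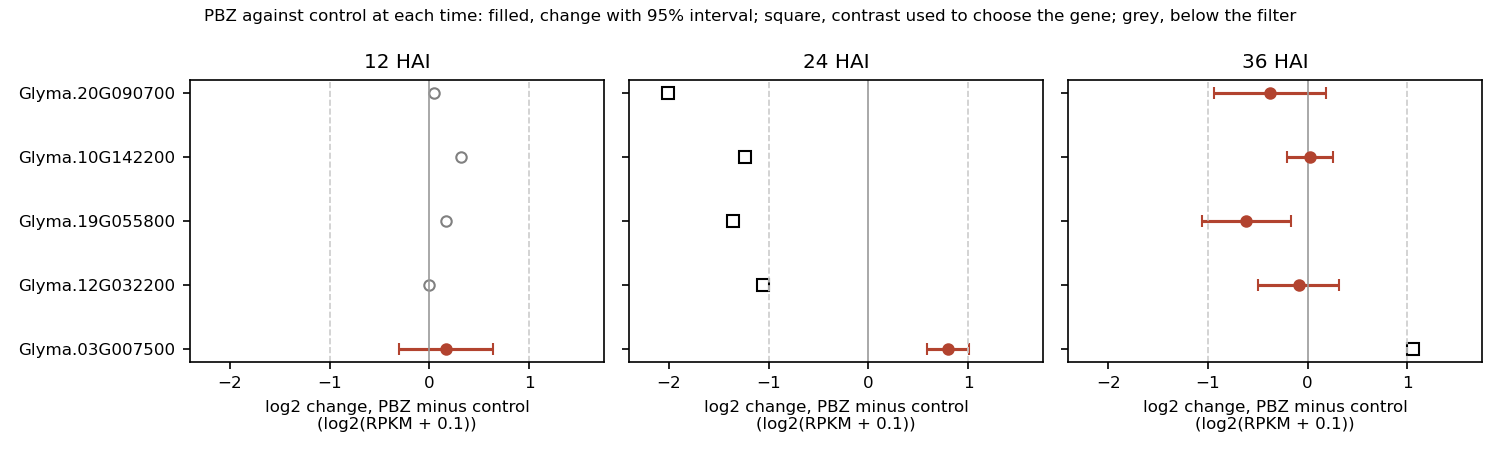
Log2 change in expression, PBZ minus control, on the log2(RPKM + 0.1) scale for the 5 MYB genes at 12, 24 and 36 HAI. Filled points with bars are tested changes with 95% intervals, open squares are the contrasts that chose the genes and carry no interval, grey circles are genes below the filter, and dashed lines mark a 2-fold difference. The 4 genes that lie beyond -1 at 24 HAI have changes of -0.61 to 0.03 at 36 HAI.

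All 4 genes rose between 12 and 36 HAI in PBZ as well as in control axes, a comparison without the 24 HAI samples. Each lay below the filter at 12 HAI and was tested only through its 36 HAI level, so only a rise could be found. The adjusted p values below set the size of the rise against the replicate spread and are no test of its direction. With PBZ the log2 rise was 4.80 for Glyma.20G090700 (limma adjusted p = 5.36e-05), against 5.23 in control (adjusted p = 2.67e-06). For Glyma.10G142200 it was 6.13 with PBZ (limma adjusted p = 3.67e-06) and 6.42 in control (adjusted p = 1.68e-06). For Glyma.19G055800 it was 4.79 with PBZ (limma adjusted p = 5.66e-05) and 5.57 in control (adjusted p = 9.07e-06). Glyma.12G032200 started from a higher level and rose by 2.60 with PBZ (limma adjusted p = 2.96e-05) and by 2.69 in control (adjusted p = 1.46e-05).

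All 4 passed both limits upward in each treatment, a class that held 27.7% of the 33825 genes tested with PBZ and 26.3% of the 33588 genes tested in control. A rise past these limits was thus common in these axes. The shares count rises of any size past 2-fold, and genes with rises as large as those of the 4 were not counted. Without control replicate 2 at 12 HAI the control rises of the 4 genes were 2.70 to 6.23, and without control replicate 3 at 36 HAI they were 2.77 to 6.51. Between 36 and 12 HAI the difference in PBZ effect did not pass the test for any of the 4 genes in limma, with interaction terms of -0.43 for Glyma.20G090700, -0.29 for Glyma.10G142200, -0.78 for Glyma.19G055800 and -0.09 for Glyma.12G032200. Their adjusted p ranged from 0.834 to 0.970 and no unadjusted p reached 0.05, while 0.0495% of the 34328 genes tested passed both limits and 7.43% had an unadjusted p up to 0.05. The 4 terms were -0.76 to -0.10 without control replicate 2 at 12 HAI and -0.93 to -0.17 without control replicate 3 at 36 HAI.

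The timing of the rise differed in the values that chose the genes. The study reported shorter and lighter axes with PBZ and a delay in germination. Samples were matched by hours after imbibition and not by stage, and a difference in stage was not tested. From 12 to 24 HAI, PBZ axes gained 14.8% of the RPKM that control axes gained for Glyma.20G090700, 39.5% for Glyma.10G142200, 33.2% for Glyma.19G055800 and 19.5% for Glyma.12G032200. By 36 HAI the gain since 12 HAI was 76.0%, 101%, 64.1% and 92.1% of the control gain, in the same order of genes. Between 24 and 36 HAI the mean of Glyma.20G090700 was multiplied by 14.03 with PBZ and by 3.87 in control. For the other 3 genes the factor was 4.74 to 6.89 with PBZ and 2.34 to 3.20 in control. These ratios contain the 24 HAI samples and are a description only.

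**Figure D3:**
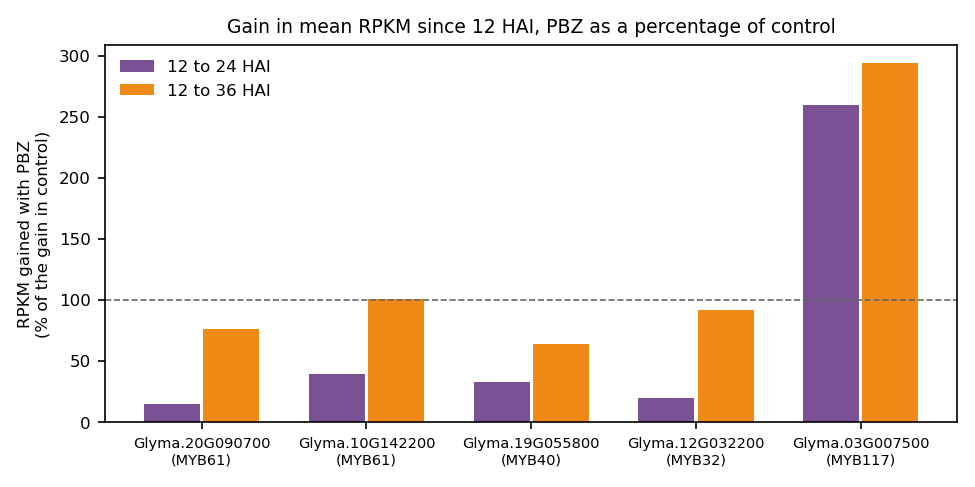
Gain in mean RPKM since 12 HAI in PBZ axes as a percentage of the gain in control axes (vertical axis, bars from 0), at 24 HAI (purple) and 36 HAI (orange), for each of the 5 MYB genes. The dashed line marks an equal gain. The first 4 genes reach 14.8% to 39.5% at 24 HAI and 64.1% to 101% at 36 HAI, and Glyma.03G007500 reaches 260% and 294%.

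Glyma.03G007500 was matched to MYB117, known in Arabidopsis as LATERAL ORGAN FUSION1, which acts in the separation of lateral organs and in axillary meristem formation. It was already expressed at 12 HAI and was the gene with the higher PBZ level. At 36 HAI, the contrast that chose it, it had 10.1, 10.5 and 10.5 RPKM with PBZ, against 4.30, 5.45 and 5.17 RPKM in control. The PBZ mean of 10.4 ± 0.241 RPKM was 2.09 times the control mean of 4.97 ± 0.599 RPKM (SD, n = 3 each), a log2 change of 1.05, with no overlap. Its place past both limits at 36 HAI, a class of 0.0885% of the genes tested in the higher direction, is part of the choice and no test of it. Without control replicate 3 at 36 HAI its log2 change was 1.09.

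The 24 HAI samples were not used to choose Glyma.03G007500, and its level was higher with PBZ there too. It had 7.02, 7.42 and 7.10 RPKM with PBZ, against 3.89, 4.09 and 4.28 RPKM in control. Replicates lay close together in both groups, and the lowest PBZ library was well above the highest control library. The PBZ mean of 7.18 ± 0.209 RPKM was 1.76 times the control mean of 4.09 ± 0.196 RPKM (SD, n = 3 each). The log2 change was 0.80 (SE 0.0888, 95% interval 0.59 to 1.01, limma adjusted p = 0.0109), past the limit on p and short of a 2-fold difference. An adjusted p of at most 0.05 with PBZ higher was found in 2.20% of all genes tested at 24 HAI, and non-overlapping groups with PBZ higher in 11.4%. Leaving out PBZ replicate 2 moved the adjusted p to 0.0649, and leaving out any other library kept it between 0.0252 and 0.0484.

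With the organelle-like genes left out and the values rescaled, the log2 change of Glyma.03G007500 at 24 HAI was 0.88 (limma adjusted p = 0.00955). At 12 HAI it had 2.93, 2.42 and 2.48 RPKM with PBZ, against 2.77, 2.29 and 1.92 RPKM in control. These groups overlapped, and the log2 change was 0.17 (95% interval -0.30 to 0.64, limma adjusted p = 0.999). Without control replicate 2, which had the low organelle-like share at 12 HAI, it was also 0.17.

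From 12 to 24 HAI, Glyma.03G007500 rose in both treatments. The log2 rise was 1.43 with PBZ (SE 0.139, limma adjusted p = 0.000284), past both limits as were 17.1% of the 31495 genes tested in the higher direction. In control it was 0.80 (SE 0.163, limma adjusted p = 0.00331), short of a 2-fold difference, and 36.6% of the 31724 genes tested there had an adjusted p of at most 0.05 in the higher direction. With quantile normalization the control rise was 0.47 (limma adjusted p = 0.0180), and without control replicate 2 at 12 HAI it was 0.80 (limma adjusted p = 0.0113). The PBZ effect on Glyma.03G007500 at 24 HAI exceeded that at 12 HAI by 0.63 on the log2 scale (SE 0.202, 95% interval 0.19 to 1.07). Its unadjusted p was 0.00920 and its adjusted p 0.410 in limma, so it did not pass over the 32287 genes, of which 0.00310% passed both limits. Without control replicate 2 at 12 HAI this difference was also 0.63 (limma adjusted p = 0.349).

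The order of the 5 genes by level differed between treatments at 24 and 36 HAI, by values that include those behind the choice. At 12 HAI, Glyma.03G007500 was highest and Glyma.12G032200 next in both treatments, each clear of its neighbours, and the other 3 overlapped. At 24 HAI with PBZ the order was Glyma.03G007500, Glyma.10G142200, Glyma.12G032200, Glyma.19G055800 and Glyma.20G090700, and no neighbours overlapped. In control at 24 HAI, Glyma.10G142200 was highest and Glyma.03G007500 next, while Glyma.12G032200, Glyma.19G055800 and Glyma.20G090700 overlapped. At 36 HAI, Glyma.10G142200 was highest in both treatments. Glyma.03G007500 came next with PBZ and was the lowest in control, and Glyma.20G090700, Glyma.19G055800 and Glyma.12G032200 overlapped in both.

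Over the 18 libraries, which share the 3 times and 2 treatments, Pearson's r of log2(RPKM + 0.1) between any pair of the first 4 genes was 0.917 to 0.972. Glyma.03G007500 gave 0.655 to 0.786 with them. These values describe profiles that all rise with time and were chosen for their treatment response.

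Among the 34475 genes with a mean of at least 1 RPKM in a condition, the profile most like that of Glyma.10G142200 was Glyma.16G022200 (r = 0.995), followed by Glyma.01G177200 (r = 0.994), which the study lists as a GRAS factor matched to SCARECROW-LIKE 15. Glyma.16G022200 averaged 2.38 RPKM with PBZ and 4.53 RPKM in control at 24 HAI, and 11.3 RPKM with PBZ and 11.04 RPKM in control at 36 HAI. The same measure named Glyma.16G142700 (r = 0.984) and Glyma.07G055800 (r = 0.983) for Glyma.20G090700. It named Glyma.05G132200 and Glyma.15G007800 (r = 0.987 each) for Glyma.19G055800. For Glyma.12G032200 it named Glyma.U038600 (r = 0.987) and Glyma.08G153300 (r = 0.984).

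The gene most like Glyma.03G007500 was Glyma.11G067700 (r = 0.945), which the study lists as DWF4, an enzyme of brassinosteroid synthesis in Arabidopsis, and the next was Glyma.13G091400 (r = 0.936). Glyma.11G067700 averaged 2.93 RPKM with PBZ and 2.04 RPKM in control at 12 HAI, 9.12 RPKM with PBZ and 4.14 RPKM in control at 24 HAI, and 23.5 RPKM with PBZ and 6.24 RPKM in control at 36 HAI. Likeness was measured over libraries that include those behind the choice of the genes. The choice of neighbours depended on the scale: with a pseudocount of 1, Glyma.07G236100, a GA2ox gene for GA inactivation, came first for Glyma.03G007500 (r = 0.952) and Glyma.11G067700 came after it (r = 0.948). On the 6 condition means, Glyma.08G153300 alone of the 10 named neighbours was named again.

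The study's list of PBZ-responsive transcription factors, drawn up on these samples, holds 9 other MYB or MYB-related genes, and it is not independent evidence of a direction. At 24 HAI, 0 of the 6 with enough expression passed both limits in limma, and 0.918% of all genes tested passed in either direction. The study called the list with a different test, cuffdiff. Not passing in limma at 24 or 36 HAI thus does not contradict those calls. An unadjusted p up to 0.05 was found in 4 of the 6 and in 26.5% of all genes tested. A further MYB61 match, Glyma.19G224600, had 0.331, 1.08 and 1.39 RPKM with PBZ, against 2.64, 2.68 and 2.39 RPKM in control (log2 change -1.55, limma adjusted p = 0.0941). Its groups did not overlap at 24 HAI, and at 36 HAI its means were 4.52 RPKM with PBZ and 4.97 RPKM in control. Its profile gave r = 0.975 with Glyma.10G142200.

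Glyma.13G247200, matched to MYB102, a stress-related factor in Arabidopsis, had 0.140, 0.462 and 0.647 RPKM with PBZ and 1.97, 1.51 and 1.62 RPKM in control at 24 HAI (log2 change -1.95, limma adjusted p = 0.0620). Glyma.14G214500, matched to MYB43, averaged 0.444 RPKM with PBZ and 1.002 RPKM in control (log2 change -0.997, limma adjusted p = 0.148). In the other direction, Glyma.06G303100, matched to the root hair regulator CPC, had 5.34, 6.53 and 2.90 RPKM with PBZ and 1.99, 2.26 and 1.58 RPKM in control (log2 change 1.23, limma adjusted p = 0.0675). These examples were taken after their values were seen. None of the 3 overlapped between treatments at 24 HAI, where 22.8% of all genes tested did not overlap with PBZ lower and 11.4% with PBZ higher. The median log2 change of the 6 tested was -0.45, against -0.07 over all genes tested.

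At 36 HAI, 0 of the 8 other MYB genes tested passed both limits in limma, and 0.128% of all genes tested passed in either direction. An unadjusted p of 0.05 was reached by 3 of the 8 and by 8.85% of all genes tested. The PBZ mean was higher in Glyma.17G245200 (MYB73), which had 8.30, 7.63 and 7.78 RPKM with PBZ and 2.70, 4.31 and 2.20 RPKM in control (log2 change 1.39, limma adjusted p = 0.106). Glyma.05G040700 (MYB86) had 4.14, 2.51 and 3.52 RPKM with PBZ and 1.70, 1.11 and 1.48 RPKM in control (log2 change 1.18, limma adjusted p = 0.204). At 24 HAI the groups of both overlapped. At 36 HAI, 5 of the 8 were lower with PBZ on the log2 scale and 3 were higher. Among the lower, Glyma.13G247200 averaged 0.982 RPKM with PBZ and 2.91 RPKM in control. Glyma.13G282100 averaged 0.763 RPKM with PBZ and 2.08 RPKM in control, and Glyma.12G218200 0.309 RPKM with PBZ and 1.01 RPKM in control. All are matched to MYB102, and control replicate 2 was the highest library of each at 36 HAI. The median of the 8 was -0.29, against 0.04 over all genes tested. At 12 HAI, 1 of the 9 was tested and it did not pass (limma, unadjusted p above 0.05).

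**Figure D4:**
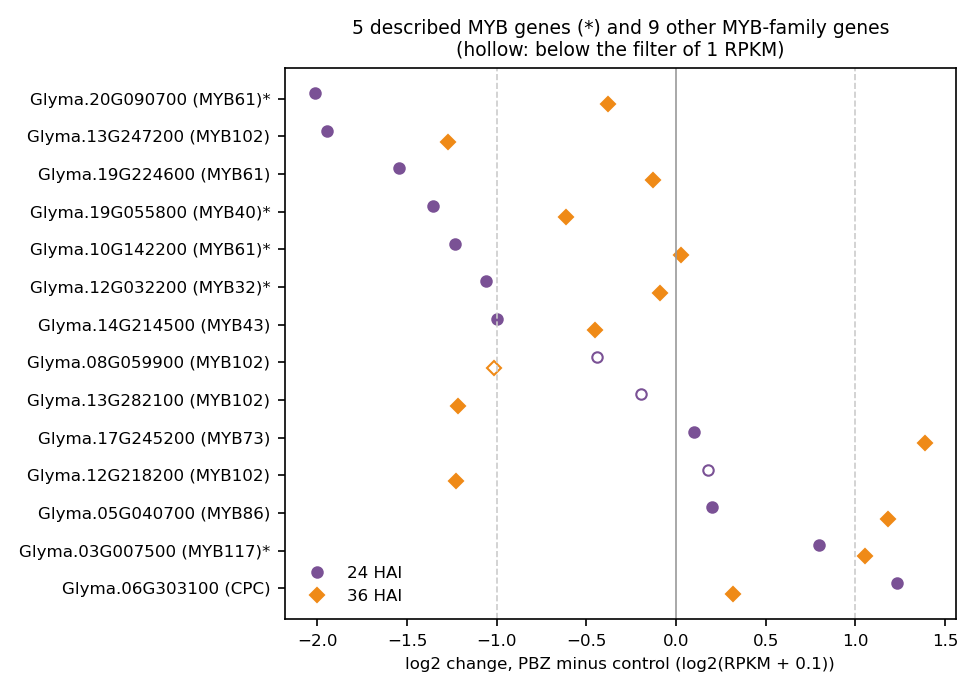
Log2 change, PBZ minus control, on the log2(RPKM + 0.1) scale at 24 HAI (purple circles) and 36 HAI (orange diamonds) for the 5 MYB genes described here (asterisks) and 9 other MYB-family genes of the study's list, with names of the closest Arabidopsis match. Hollow symbols are below the filter of 1 RPKM and dashed lines mark a 2-fold difference. The 3 MYB61 matches lie between -2.01 and -1.23 at 24 HAI and between -0.38 and 0.03 at 36 HAI.

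The 31 other transcription factors of that list, chosen on the same samples, included 19 tested at 24 HAI, of which 2 rose and 3 fell past both limits, where 0.716% of all genes tested passed in the higher direction and 0.202% in the lower. Their median log2 change was -0.59, against -0.07 over all genes tested. The 2 that rose were the S1Fa-like genes Glyma.13G138200 (log2 change 1.06) and Glyma.03G179000 (log2 change 1.05). The 3 that fell were the bHLH gene Glyma.08G298700 (log2 change -1.27), the bZIP gene Glyma.02G131700 (log2 change -1.19) and the NAC gene Glyma.19G097700 (log2 change -1.54). With a pseudocount of 1 this NAC gene had the profile most like that of Glyma.20G090700 (r = 0.989). At 36 HAI all 31 were tested and 2 rose past both limits, the bHLH gene Glyma.04G090100 (log2 change 1.21) and the WRKY gene Glyma.10G011300 (log2 change 1.23), a class of 0.0885% of all genes tested. In all, 25 of the 31 had lower PBZ means on the log2 scale, with a median log2 change of -0.50 against 0.04 over all genes tested. An unadjusted p of 0.05 was reached by 19 of the 31 and by 8.85% of all genes tested. The study called this list on these samples, so such an excess is part of the choice and no test of it. At 12 HAI, 0 of 8 tested passed in limma, against 0.0102% of all genes tested, and 1 reached an unadjusted p of 0.05, against 5.04%.

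Of 40 genes of GA synthesis, inactivation, transport, perception and signalling, also listed by the study, 35 were tested at 24 HAI. The one that passed both limits fell: Glyma.15G135200 (KAO2), an ent-kaurenoic acid oxidase of GA synthesis, at 7.77 RPKM with PBZ and 15.8 RPKM in control (log2 change -1.04, limma adjusted p = 0.0474), and 0.918% of all genes tested passed in either direction. An unadjusted p of 0.05 was reached by 14 of the 35 GA genes and by 26.5% of all genes tested. At 36 HAI, 0 of 37 passed in limma, against 0.128% of all genes tested, and 10 reached an unadjusted p of 0.05, against 8.85%. At 12 HAI, 0 of 29 passed in limma, against 0.0102%, and 1 reached that unadjusted p, against 5.04%. The median log2 change of the GA genes was -0.08 at 24 HAI and 0.03 at 36 HAI, beside -0.07 and 0.04 over all genes tested.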

How the data were processed

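The authors sequenced TruSeq v2 libraries, removed rRNA reads, aligned the rest to Wm82.a2.v1 with Novoalign 3.06.05, kept uniquely mapped reads and deposited RPKM values computed by Cufflinks 2.1.1 with bias correction and a first-strand setting. All 18 columns were matched to samples by name, and 0 were left unmapped. The deposited RPKM values were analysed as log2(RPKM + 0.1) with limma 3.58.1 in R 4.3.3, with a variance trend and Benjamini-Hochberg adjustment over the genes that averaged 1 RPKM or more in a group. The authors called genes with cuffdiff, which needs alignments and was not repeated. Each contrast used its own samples, and interactions the 4 groups involved.

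The 5 genes, the gene lists and the tests were chosen with earlier results of these data known. Named beside them are the 2 genes with the highest r for each, and list members past both limits or taken as examples after their values were seen. Identifiers matched 0 entries of the Glycine_max_v4.0 gene table, so no sequence or position is given. The axis label was not checked against marker genes. RPKM carries no counts, so the spread of 3 replicates sets the precision. The results on the 5 genes were recomputed with a pseudocount of 1 or 0.01, without the filter, with a filter of 5 RPKM, under 2 other scalings, without the organelle-like genes, with all 18 samples in 1 fit, with a replicate block, without the variance trend, and with each library left out in turn. The results on the other lists were not, and likeness was recomputed with a pseudocount of 1 and on condition means. The fits were tested on simulated data. Figures were drawn with matplotlib.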

Additional observations from a re-analysis of the deposited data

How the results depend on the processing

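Counts of the 5 MYB genes past both limits at 24 and 36 HAI belong to the contrasts that chose them and say nothing of support. At 24 HAI the count of 4 was 1 with a pseudocount of 1, 2 without a filter, 1 with a filter of 5 RPKM, 1 with all 18 samples in one fit, 2 without the variance trend, and 0 to 3 with 1 library left out (3 without PBZ replicate 3, and 0 without any other). At 36 HAI the count of 1 was 0 with a pseudocount of 1, 0 without the trend and 0 to 0 with 1 library left out. The filter of 5 RPKM took the count from 12 to 24 HAI to 1 in PBZ axes (reported value 2) and to 1 in control axes (reported value 4), since it leaves fewer of these genes tested. From 12 to 36 HAI, 1 library left out gave 5 to 5 genes in PBZ axes and 4 to 5 in control axes. From 12 to 24 HAI it gave 2 to 2 in PBZ axes and 4 to 4 in control axes. At 12 HAI and for both interactions the count was 0 to 0. Apart from the filter of 5 RPKM, the causes were not tested. A fit left with 2 libraries in a group takes its spread from both groups. Same-numbered PBZ and control libraries deviated from their group means with r of 0.0271 to 0.279, and 3 of the 9 pairs lay under 0.1. Between libraries of unlike number r was lower, at -0.225 to 0.0810 with some overlap. Each group was centred on its own mean, so a positive r for same-numbered libraries lowers the others by construction. The labels do not say what same-numbered libraries share, so the main tests were unpaired and the replicate block was kept as an alternative. With the replicate block the count was 3 at 24 HAI and 1 at 36 HAI, and the adjusted p of Glyma.19G055800 at 36 HAI was 0.0905. At 12 HAI, PBZ replicate 3 correlated best with control replicate 2, and every other PBZ library with the same-numbered control of its time.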
